A study of Homo sapiens with 33 samples.

Results

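Palmul-tang at 500 µg/mL was compared with vehicle in HT29, a human colorectal adenocarcinoma cell line. The comparison holds 3 Palmul-tang and 3 vehicle samples, 6 of the 33 samples of the series, chosen by their sample labels. The extracts were made with 70% ethanol, all cells were harvested after 24 h, and vehicle was 0.1% DMSO in the sample labels. Palmul-tang is a formula of East Asian medicine that joins the herbs of Sagunja-tang with those of Samul-tang, and Sibjeondaebo-tang adds further herbs to it. Used beside the main comparison were Palmul-tang at 20 and 100 µg/mL (3 samples each), Sagunja-tang and Samul-tang at 500 µg/mL (2 samples each) and Sibjeondaebo-tang at 500 µg/mL (3 samples). The same 3 vehicle samples serve every comparison with vehicle.

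Total counts ran from 40.52 to 49.07 (in units of 1e6) with Palmul-tang at 500 µg/mL and from 31.07 to 35.63 with vehicle. All samples carry the same batch letter, but vehicle and Palmul-tang samples have codes of different kinds, so whatever those codes stand for cannot be told apart from the treatment. Codes of Sagunja-tang and Samul-tang samples begin otherwise than those of Palmul-tang, so comparing Palmul-tang with either formula has the same limit. The labels do not say that replicates came from separate cultures. The p-values therefore cover only the variation among the samples at hand, and that variation may be technical. All 14 epithelial colon markers were detected, with summed counts per 1e6 counts (CPM) of 12036 to 12983 with Palmul-tang and 12267 to 13038 with vehicle. Fibroblast markers summed to at most 2.36 CPM with COL3A1 and DCN at 0, and endothelial markers to at most 2.61 CPM with CDH5 and KDR at 0. The leukocyte list summed to 1423 to 1547 CPM with Palmul-tang and 1347 to 1424 CPM with vehicle, nearly all of it LYZ, with CD3E and MS4A1 at 0. In bulk RNA, fewer cells of a kind and less RNA per cell cannot be told apart.

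NRF2, encoded by NFE2L2, is a transcription factor that KEAP1 holds in the cytoplasm and marks for destruction. Electrophiles and oxidants modify KEAP1, NRF2 then enters the nucleus with a small MAF partner, and it binds antioxidant response elements at genes for glutathione synthesis, thioredoxin and quinone reduction, NADPH supply, iron storage and the disposal of carbonyl compounds. Many plant constituents are known to act on this system in colon cells. Sterol synthesis genes, read by SREBP2, and sterol export genes, read by the LXR receptors, form a separate pair of programs that cells use to set their cholesterol content.

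The NRF2 target list had the largest number of rises of the 40 gene lists described, and 4 of its members are shown here by their promoters because their windows hold the core of the antioxidant response element. Each window runs from 250 bases before to 50 bases after the RefSeq start, is written 5′ to 3′ on the strand of the gene (build GRCh38.p14), and has TGACNNNGC on either strand in capitals. GCLM lies at chr1:93909381-93909680 on the minus strand, TXNRD1 at chr12:104215529-104215828 on the plus strand, PIR at chrX:15493284-15493583 on the minus strand and ME1 at chr6:83431002-83431301 on the minus strand.
GCLM: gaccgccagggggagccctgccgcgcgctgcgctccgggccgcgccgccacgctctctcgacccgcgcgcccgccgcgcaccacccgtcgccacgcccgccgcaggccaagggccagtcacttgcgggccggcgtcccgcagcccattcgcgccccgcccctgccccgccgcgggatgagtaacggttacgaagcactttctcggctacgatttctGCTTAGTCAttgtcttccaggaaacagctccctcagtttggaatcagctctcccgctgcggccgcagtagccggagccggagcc
TXNRD1: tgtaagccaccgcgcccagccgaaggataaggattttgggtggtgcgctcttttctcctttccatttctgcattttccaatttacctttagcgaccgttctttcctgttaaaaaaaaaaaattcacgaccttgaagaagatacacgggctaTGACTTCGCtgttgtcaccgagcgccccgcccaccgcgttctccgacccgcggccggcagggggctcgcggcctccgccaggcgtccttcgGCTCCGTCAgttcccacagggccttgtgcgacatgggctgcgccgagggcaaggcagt
PIR: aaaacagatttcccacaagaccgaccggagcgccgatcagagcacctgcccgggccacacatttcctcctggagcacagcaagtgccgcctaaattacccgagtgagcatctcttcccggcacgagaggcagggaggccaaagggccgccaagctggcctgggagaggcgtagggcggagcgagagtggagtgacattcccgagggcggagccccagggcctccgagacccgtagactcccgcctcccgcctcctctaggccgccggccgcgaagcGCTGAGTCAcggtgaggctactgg
ME1: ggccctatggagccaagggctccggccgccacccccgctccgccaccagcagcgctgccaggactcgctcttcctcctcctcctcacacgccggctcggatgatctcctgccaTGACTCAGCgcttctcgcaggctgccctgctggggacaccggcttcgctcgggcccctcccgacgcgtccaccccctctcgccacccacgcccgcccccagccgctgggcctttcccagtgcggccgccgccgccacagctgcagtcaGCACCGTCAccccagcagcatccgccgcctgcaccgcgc
The core was found in 7 of the 25 windows available for tested NRF2 targets (28.0%) and in 13.6% of all 27305 windows. It was present in 16.9% of the windows of genes that rose, 15.6% of those that fell and 14.3% of those with no call. These are matches of letters and say nothing of binding.

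Of 17433 genes tested with edgeR's quasi-likelihood test and Benjamini-Hochberg adjustment (threshold 0.05), 5598 were called (32.1%), of which 3018 rose (17.3%) and 2580 fell (14.8%) with Palmul-tang at 500 µg/mL. Most of these differences were small: the median fold of a called gene was 1.19 for rises and 1.2 for falls. Beyond 2-fold there were 75 rises and 111 falls. Against a fold of 1.2, edgeR's glmTreat called 478 genes (2.74%), 237 higher (1.36%) and 241 lower (1.38%), and 292 without Palmul-tang replicate 1 or 289 without vehicle replicate 3. Differences are given below as log2 fold change ± SE. A gene said to have risen or fallen passed the quasi-likelihood test over all genes.

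Of the 36 NRF2 targets, all of which were tested, 32 rose and 1 fell, and the median log2 fold change was 0.55, against -0.006 over all genes tested. In 32 of the 36, all 3 Palmul-tang samples lay above all 3 vehicle samples, which was so for 23.1% of all genes. Among genes of carbonyl and xenobiotic metabolism 9 of 10 rose (median 1.12), the highest median of the 6 functional groups of this list. All 5 genes of thioredoxin and quinone reduction rose (median 0.64), as did 5 of 6 for cystine uptake and glutathione (0.54), 5 of 6 for NADPH supply (0.35), 4 of 5 for heme and iron (0.31) and 4 of 4 others (0.58).

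The aldo-keto reductases, which reduce aldehydes, ketones and steroids with NADPH, held the 3 largest differences of the list. AKR1B10 (ENSG00000198074, chromosome 7, 134527592 to 134541408 on hg38) had 283, 278 and 261 CPM with Palmul-tang and 105, 98.3 and 92.3 CPM with vehicle (1.48 ± 0.05, adjusted p = 8.98e-18 by edgeR's quasi-likelihood test). The lowest Palmul-tang sample was more than 2-fold above the highest vehicle sample. AKR1C2 had 37.8, 36.7 and 36.3 CPM with Palmul-tang and 12.7, 10.7 and 11.3 CPM with vehicle (1.68 ± 0.07, edgeR adjusted p = 2.12e-15). AKR1C3 had 112, 102 and 105 CPM with Palmul-tang and 43.3, 38 and 34 CPM with vehicle (1.47 ± 0.13, edgeR adjusted p = 1.86e-09), and AKR1C1 rose by 1.10 ± 0.08. AKR1C1, AKR1C2 and AKR1C3 are close copies of each other on chromosome 10, and how their shared reads were divided is uncertain. ALDH3A1, an aldehyde dehydrogenase counted in the aryl hydrocarbon receptor list and not here, had 65.3, 65.5 and 67.3 CPM with Palmul-tang and 27.4, 27.2 and 28.4 CPM with vehicle (1.25 ± 0.05, edgeR adjusted p = 6.97e-17). The 3 samples of each group lay close together and the groups were far apart. ABCC2, an efflux pump for conjugates, rose by 1.15 ± 0.18. CBR3, a carbonyl reductase, was 1.37 higher on the log2 scale and was not called (edgeR adjusted p = 0.0615).

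**Figure D1:**
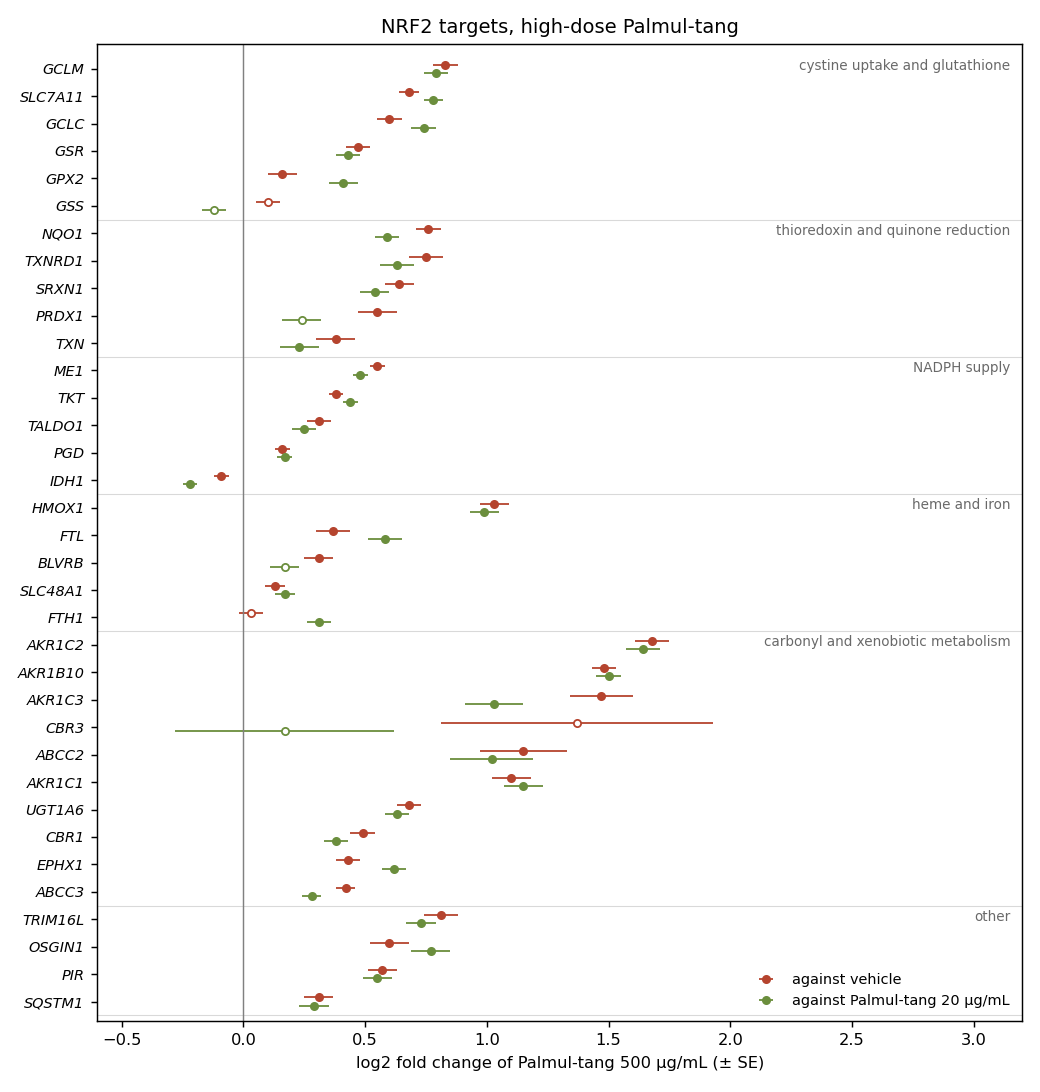
Log2 fold change ± SE (horizontal axis) of 35 of the 36 NRF2 targets, grouped by role (vertical axis), for Palmul-tang at 500 µg/mL against vehicle (red) and against Palmul-tang at 20 µg/mL (green). Filled points passed edgeR's test at 0.05: 31 of the 35 lie to the right of 0 and are filled against vehicle, and 30 against the low dose.

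Glutathione synthesis begins with cystine uptake by the exchanger SLC7A11 and the ligase of which GCLC is the catalytic and GCLM the modifier subunit. SLC7A11 had 234, 232 and 232 CPM with Palmul-tang and 152, 149 and 132 CPM with vehicle (0.68 ± 0.04). GCLM, whose promoter is printed above, had 115, 113 and 112 CPM with Palmul-tang and 65.2, 67.2 and 58.8 CPM with vehicle (0.83 ± 0.05, edgeR adjusted p = 4.72e-13). For both genes the spread among Palmul-tang samples was smaller than that among vehicle samples, and no sample of one group entered the range of the other. GCLC rose by 0.60, GSR, glutathione reductase, by 0.47 and GPX2, a peroxidase of the gut epithelium, by 0.16 (edgeR adjusted p = 0.0492). GSS, the second enzyme of the synthesis, was at 0.10 and was not called.

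NQO1, the quinone reductase, had 809, 788 and 795 CPM with Palmul-tang and 499, 468 and 441 CPM with vehicle (0.76 ± 0.05, edgeR adjusted p = 2.93e-12). TXNRD1, thioredoxin reductase, rose by 0.75, SRXN1, sulfiredoxin, by 0.64, PRDX1, a peroxiredoxin, by 0.55 and TXN, thioredoxin, by 0.38. For NADPH supply, ME1, malic enzyme, had 135, 134 and 138 CPM with Palmul-tang and 94.8, 92.9 and 89.3 CPM with vehicle, a rise of 0.55, while IDH1, the cytosolic isocitrate dehydrogenase, was the 1 target that fell (-0.09 ± 0.03, edgeR adjusted p = 0.0395). In NQO1 and ME1 the groups did not overlap. IDH1 had 172, 173 and 178 CPM with Palmul-tang against 188, 185 and 183 CPM with vehicle, groups that lay apart by a few CPM.

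HMOX1, the heme oxygenase, had 22.4, 23.4 and 22.8 CPM with Palmul-tang and 10.8, 11.5 and 11.3 CPM with vehicle (1.03 ± 0.06, edgeR adjusted p = 1.78e-12). Of the ferritin subunits, the light chain FTL rose by 0.37 and the heavy chain FTH1 was at 0.03 and was not called (edgeR adjusted p = 0.717). Among the other targets, OSGIN1, an oxidative stress growth inhibitor, rose by 0.60, PIR, pirin, by 0.57 and TRIM16L by 0.81. The regulators themselves differed less: KEAP1 had 73.7, 71.2 and 69.4 CPM with Palmul-tang and 56.2, 51.7 and 49.3 CPM with vehicle (0.45 ± 0.06, edgeR adjusted p = 4.26e-06). NFE2L2 had 120, 122 and 128 CPM with Palmul-tang and 147, 145 and 145 CPM with vehicle (-0.24 ± 0.05, edgeR adjusted p = 0.000185). The mRNA of the factor was thus lower in every Palmul-tang sample than in every vehicle sample. MAFG and MAFK, small MAF partners, each rose by 0.32 and BACH1, a repressor at the same elements, by 0.15. Without vehicle replicate 3 the regulators that rose were 2 in place of 4, with BACH1 and MAFK no longer called.

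In the dose series the NRF2 targets had their largest median difference at the upper dose, and part of them rose at 100 µg/mL already. Against vehicle, 6 of the 36 targets rose and 6 fell at 20 µg/mL (median 0.04), 15 rose and 2 fell at 100 µg/mL (0.16), and 32 rose and 1 fell at 500 µg/mL. Over all genes 20.3% were called at 20 µg/mL (10.6% higher, 9.73% lower) and 20.0% at 100 µg/mL (10.3% higher, 9.63% lower). The 3545 calls at 20 µg/mL numbered 1953 without vehicle replicate 3 and 1663 without replicate 2 of that dose. The 3481 calls at 100 µg/mL numbered 1820 without vehicle replicate 3, and 2189 and 1591 without replicates 1 and 2 of that dose. These comparisons share the vehicle samples. Tested directly, without vehicle, 500 against 20 µg/mL gave 31 targets higher and 1 lower (median 0.54), where 14.4% of all genes were called, 7.66% higher and 6.75% lower. AKR1B10 averaged 98.5 CPM with vehicle, 97.1 at 20 µg/mL, 120 at 100 µg/mL and 274 at 500 µg/mL. Between 500 and 20 µg/mL KEAP1 rose by 0.21 (edgeR adjusted p = 0.0165), while NFE2L2, already at -0.25 against vehicle at 20 µg/mL, was at 0.01 and was not called.

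**Figure D2:**
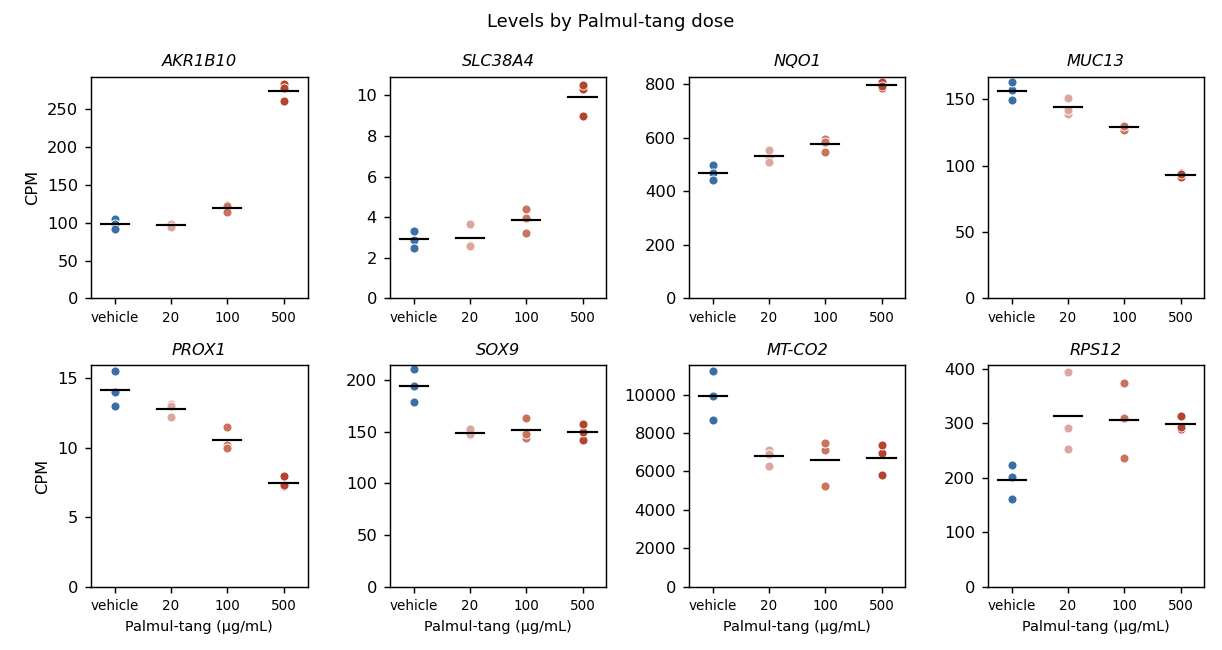
CPM per sample (vertical axes) of 8 genes with vehicle and with Palmul-tang at 20, 100 and 500 µg/mL (horizontal axes, low to high), 3 samples each. AKR1B10, SLC38A4 and NQO1 are high at 500 µg/mL, while MT-CO2 and SOX9 are lower, and RPS12 higher, than vehicle already at 20 µg/mL.

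SLC38A4, a sodium-coupled neutral amino acid transporter (ENSG00000139209, chromosome 12, 46764761 to 46832408 on hg38), had the largest rise after RN7SL2, RN7SL1 and ZACN, described below, among genes with a mean log2 CPM of at least 2 whose groups did not overlap. It had 8.98, 10.3 and 10.5 CPM with Palmul-tang and 2.9, 2.47 and 3.34 CPM with vehicle (1.78 ± 0.12, a fold of 3.44, edgeR adjusted p = 3.95e-11). At 20 and 100 µg/mL it averaged 2.95 and 3.86 CPM, near the vehicle level. SLC14A1, a urea transporter, had the largest fall by the same measure, with 2.23, 2.19 and 2.25 CPM with Palmul-tang and 6.33, 6.46 and 6.34 CPM with vehicle (-1.52 ± 0.14, edgeR adjusted p = 5.37e-09). It averaged 6.02 and 5.54 CPM at 20 and 100 µg/mL, so in both genes the samples at 500 µg/mL stood apart from all other doses. Over the 23 amino acid and urea transporters, 8 rose and 5 fell (median -0.02). SLC6A20, a proline transporter, was among the falls, with 4.83, 5.2 and 5.21 CPM with Palmul-tang and 9.36, 10.2 and 10 CPM with vehicle.

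The remaining large falls came from genes of varied function. CD200, a membrane glycoprotein that restrains myeloid cells, had 3.45, 3.72 and 4.19 CPM with Palmul-tang and 8.75, 8.71 and 9.15 CPM with vehicle (-1.22 ± 0.09). SYTL2, a RAB27 effector of vesicle docking, had 28.6, 26 and 26.1 CPM with Palmul-tang and 56.5, 59.9 and 55.2 CPM with vehicle (-1.09 ± 0.07). TP53INP2, an autophagy protein, had 8.72, 9.62 and 8.61 CPM with Palmul-tang and 19.6, 22.6 and 18.7 CPM with vehicle (-1.18 ± 0.07, edgeR adjusted p = 1.31e-12). Genes of this set were chosen for groups that do not overlap. PROX1, a homeobox factor known as a target of beta-catenin in colon tumours, had 7.22, 7.29 and 7.93 CPM with Palmul-tang and 13, 14 and 15.5 CPM with vehicle (-0.92 ± 0.07, edgeR adjusted p = 2.54e-10). TLE4, a Groucho family corepressor, fell by 0.98, CLIC5, a chloride channel protein of microvilli, by 0.95, and MYO7B, the brush border myosin, by 0.93 on the log2 scale. FAXDC2 (-1.05), the long noncoding IGFL2-AS1 (-1.19) and the mitochondrial pseudogene MTND4P12 (-1.15) completed the 12. Between 500 and 20 µg/mL, 11 of these 12 fell, the exception being MTND4P12 at -0.01. Over all genes 6.75% fell in that test. The 12 were chosen on the same samples at 500 µg/mL, so the choice itself favoured a fall there.

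The 12 largest rises were likewise chosen on the same samples at 500 µg/mL. Of these 12, 8 also rose between 500 and 20 µg/mL, where 7.66% of all genes rose. The other 4 were RN7SL1, RN7SL2, ZACN and ATP6V1G2-DDX39B. RN7SL1, an RNA of the signal recognition particle, had 19.1, 14.9 and 45.7 CPM with Palmul-tang and 5.7, 5.26 and 2.9 CPM with vehicle, with replicate 3 far above the other Palmul-tang samples. RN7SL2, its near-identical copy, showed the same replicate highest, and the division of reads between them is uncertain. ZACN, an ion channel gene, had 8.2, 14.7 and 10.5 CPM with Palmul-tang and 7.23, 0.115 and 1.77 CPM with vehicle, and its call was lost without vehicle replicate 2 (log2 fold change 1.28, edgeR adjusted p = 0.0573). ATP6V1G2-DDX39B is a readthrough locus that shares exons with DDX39B, and its counts are likewise uncertain.

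**Figure D3:**
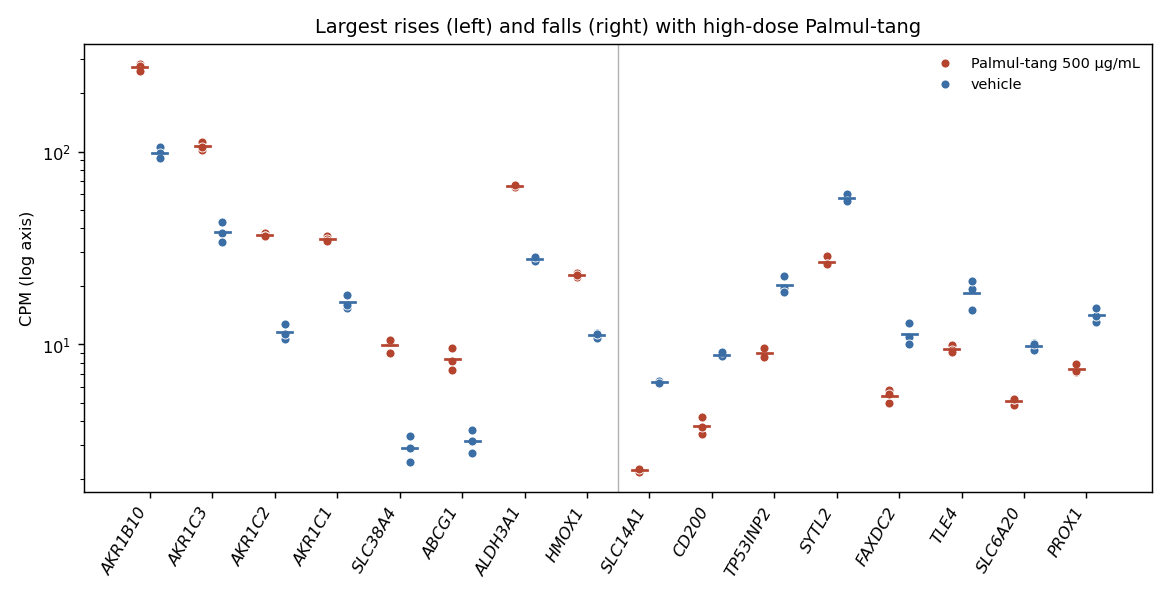
CPM per sample on a log axis (vertical) of 8 genes that rose and 8 that fell with Palmul-tang at 500 µg/mL (red, left) against vehicle (blue, right), 3 samples each, with the group mean as a line. The genes were chosen for groups that do not overlap.

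Members of the LXR list rose, and members of the sterol synthesis and uptake list fell. ABCG1, a sterol exporter and LXR target, had 8.23, 9.55 and 7.38 CPM with Palmul-tang and 3.6, 2.73 and 3.17 CPM with vehicle (1.41 ± 0.11, edgeR adjusted p = 2.44e-10). Of the 10 tested genes of the LXR list, 7 rose and 0 fell (median 0.24), including PLTP, the phospholipid transfer protein (0.68), MYLIP, a ubiquitin ligase (0.49), and NR1H3, which encodes LXR alpha (0.35). ABCA1, the other classical LXR exporter, was at 0.17 and was not called (edgeR adjusted p = 0.27). In the sterol synthesis and uptake list 0 of 28 rose and 15 fell (median -0.19). INSIG1, which retains the SREBP complex in the endoplasmic reticulum, had 129, 127 and 125 CPM with Palmul-tang and 202, 204 and 187 CPM with vehicle (-0.63 ± 0.04, edgeR adjusted p = 5.68e-12). HMGCS1, an early enzyme of the synthesis, had 208, 194 and 190 CPM with Palmul-tang and 303, 308 and 249 CPM with vehicle (-0.54 ± 0.06, edgeR adjusted p = 1.12e-07). No sample of either gene entered the other group's range.

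Of the 20 synthesis genes 10 fell, as did 3 of the 4 uptake genes. MSMO1, a sterol demethylase, was at -0.58 and SQLE, squalene epoxidase, at -0.26. At 20 µg/mL the same list had 6 members higher and 3 lower than vehicle (median 0.08), and between 500 and 20 µg/mL 0 rose and 20 fell (median -0.26). The sterol element TCACNCCAC, searched on both strands, was found in 1 of 21 promoter windows of the list, that of SREBF2, and in 1.15% of all windows. SREBF2 encodes SREBP2 and was at -0.12. Its window is shown because it was the 1 match, at chr22:41832855-41833154 on the plus strand of GRCh38.p14 (RefSeq), with the element in capitals.
SREBF2: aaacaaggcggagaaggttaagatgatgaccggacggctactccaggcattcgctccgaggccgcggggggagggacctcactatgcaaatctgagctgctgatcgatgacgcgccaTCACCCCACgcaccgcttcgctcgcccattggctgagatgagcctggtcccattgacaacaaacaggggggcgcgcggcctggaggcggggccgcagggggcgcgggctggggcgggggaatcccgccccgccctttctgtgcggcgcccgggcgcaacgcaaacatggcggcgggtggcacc

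Of 28 tested PPAR targets and fatty acid oxidation genes 14 rose and 2 fell (median 0.22). FABP1, the liver-type fatty acid binding protein, had 4.41, 3.94 and 4.21 CPM with Palmul-tang and 1.4, 1.47 and 1.7 CPM with vehicle (1.46 ± 0.14). CPT1A, which admits long-chain fatty acids to mitochondria, had 133, 129 and 142 CPM with Palmul-tang and 95.3, 96 and 93.4 CPM with vehicle (0.50). Both genes were higher in every Palmul-tang sample. PDK4, a kinase that closes pyruvate dehydrogenase (0.66), and ACADVL, a long-chain dehydrogenase (0.54), also rose. In fatty acid synthesis 5 of 15 rose and 2 fell. The share that fell was near that over all genes. The falls were ACSS2, acetyl-CoA synthetase, with 16.7, 14.6 and 14.1 CPM with Palmul-tang and 25.9, 27.3 and 24 CPM with vehicle (-0.76), and LPIN1, a phosphatidate phosphatase (-0.60).

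Mucin and secretory genes were lower with Palmul-tang. Goblet cells secrete the gel-forming mucin MUC2, while membrane mucins form the glycocalyx of absorptive cells, and HT29 cells are known to express genes of both. Of the 8 tested membrane mucins 0 rose and 6 fell (median -0.72). MUC13, a membrane mucin of the colon, had 94.3, 91.6 and 93.5 CPM with Palmul-tang and 157, 163 and 149 CPM with vehicle (-0.75 ± 0.04, edgeR adjusted p = 5.28e-14). It averaged 144 CPM at 20 µg/mL and 129 CPM at 100 µg/mL, levels between those of vehicle and 500 µg/mL. MUC16 (-1.55), MUC17 (-0.87), MUC12 (-0.77), MUC3A (-0.69) and MUC20 (-0.63) were the other falls. MUC16 did not meet the rule for the largest falls above, a mean log2 CPM of at least 2 and groups that do not overlap.

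Of 19 tested goblet and secretory markers 1 rose and 10 fell (median -0.31). REG4, a secreted lectin, had 18.4, 18.5 and 20.5 CPM with Palmul-tang and 35.3, 34.2 and 39 CPM with vehicle (-0.91 ± 0.07). MUC2 had 12.7, 14.1 and 13.9 CPM with Palmul-tang and 19.4, 24.2 and 27.4 CPM with vehicle (-0.80 ± 0.12). Every Palmul-tang sample lay below every vehicle sample for both, with vehicle the more spread for MUC2. The factors CREB3L1 (-0.77), ATOH1, the determinant of secretory fate (-0.57), and SPDEF, which matures goblet cells (-0.31), fell as well. AGR3, a disulfide isomerase of secretory cells, was the 1 rise (0.24). Tested between 500 and 20 µg/mL, 0 of the 19 rose and 11 fell, and 0 of the 8 membrane mucins rose and 4 fell. Without vehicle replicate 3 the goblet falls numbered 7 in place of 10. Among 20 tested enterocyte genes 1 rose, KRT20, a keratin of differentiated cells (0.21), and 8 fell, among them CDX2, the intestinal homeobox factor (-0.57).

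Of 19 tested Wnt and beta-catenin targets 0 rose and 11 fell (median -0.20). SOX9, a factor of crypt progenitors, had 142, 150 and 158 CPM with Palmul-tang and 179, 211 and 194 CPM with vehicle (-0.37), and AXIN2, a negative feedback gene of the pathway, was at -0.31. Both were as far from vehicle at 20 µg/mL (-0.38 for SOX9 and -0.30 for AXIN2), where 0 of the 19 rose and 10 fell, and between 500 and 20 µg/mL 2 rose and 5 fell (median 0.01). Of 18 FOXO targets 1 rose and 11 fell (median -0.24), including KLHL24, an ubiquitin ligase adaptor (-0.67), SESN3 (-0.60) and SESN1 (-0.41), sestrins that restrain mTORC1, and CCNG2, an atypical cyclin of arrested cells (-0.47). TP53INP2 belongs to this list too. Of the FOXO targets 0 rose and 3 fell at 20 µg/mL (median 0.04), and between 500 and 20 µg/mL 0 rose and 9 fell (median -0.17). The dose patterns of the Wnt and FOXO lists were not tested against each other.

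**Figure D4:**
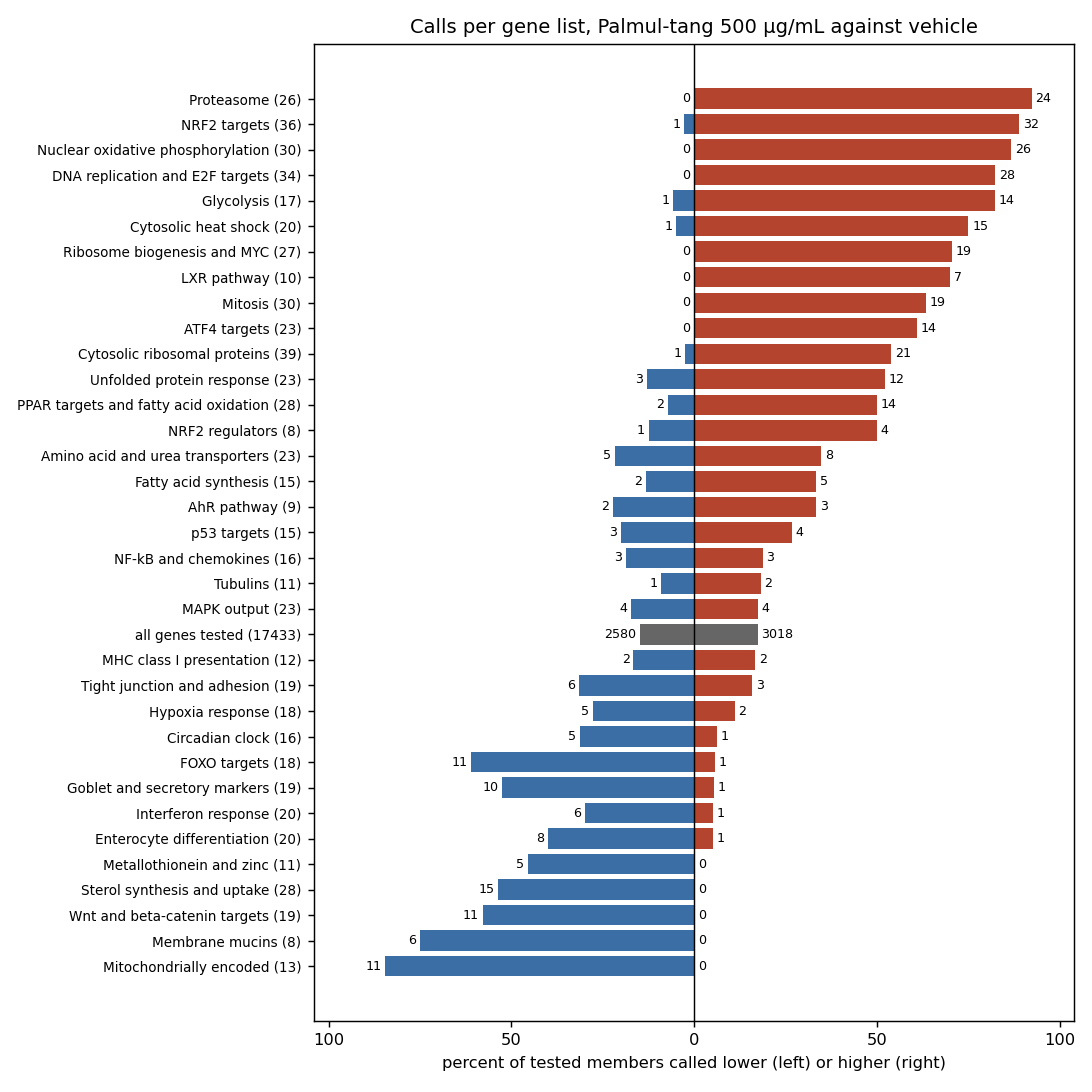
Percent of tested members (horizontal axis) that were lower (left) or higher (right) with Palmul-tang at 500 µg/mL than with vehicle, by gene list (vertical axis), with the number of called members beside each bar and the share over all genes in grey. NRF2 targets (32 of 36 higher), proteasome (24 of 26 higher) and mitochondrially encoded genes (11 of 13 lower) depart most from 17.3% higher and 14.8% lower over all genes.

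Genes of growth and protein quality control rose by small amounts. Of 34 genes of DNA replication and E2F control 28 rose and 0 fell (median 0.25), among them E2F1 (0.46), POLD1, a polymerase subunit (0.44), FEN1, the flap nuclease (0.41), and PCNA, the sliding clamp (0.37). MCM3, part of the replicative helicase, had 241, 234 and 232 CPM with Palmul-tang and 184, 176 and 174 CPM with vehicle (0.40), groups that lay far apart beside their own spread. Of 30 mitosis genes 19 rose and 0 fell (median 0.16), including CDK1 (0.41) and MAD2L1, a spindle checkpoint protein (0.45). Of 27 ribosome biogenesis genes 19 rose and 0 fell (median 0.14), among them NOP56, a nucleolar protein of small RNA particles (0.42). At 20 µg/mL 15 replication genes were already higher than vehicle and 0 lower, at 100 µg/mL 20 were higher and 0 lower, and between 500 and 20 µg/mL 16 rose and 0 fell. Of the mitosis genes 10 were higher and 2 lower than vehicle at 20 µg/mL, and 11 rose and 0 fell between 500 and 20 µg/mL. Of the ribosome biogenesis genes 3 were higher and 5 lower than vehicle at 20 µg/mL, and 22 rose and 0 fell between 500 and 20 µg/mL. Of 17 glycolytic enzymes 14 rose and 1 fell (median 0.23). ENO1, enolase, had 2034, 1987 and 1866 CPM with Palmul-tang and 1588, 1469 and 1341 CPM with vehicle (0.42), and ALDOC, an aldolase, was the fall (-0.42).

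In the cytosolic heat shock list, which also holds the mitochondrial chaperonins HSPD1 and HSPE1, 15 of 20 rose and 1 fell (median 0.20). HSPA1A, the inducible HSP70, had 364, 348 and 335 CPM with Palmul-tang and 267, 271 and 282 CPM with vehicle (0.35), with no overlap between the groups, although its near-identical neighbour HSPA1B makes the division of reads uncertain. FKBP4, an HSP90 partner, rose by 0.37 and HSPA8, the constitutive HSP70, by 0.18, while HSPB1, a small heat shock protein, was the fall (-0.41). Against 20 µg/mL, 14 of the 20 rose and 0 fell. In the unfolded protein response 12 of 23 rose and 3 fell (median 0.13). Its 18 chaperones and other endoplasmic reticulum proteins held all 12 rises, HSPA5 (BiP) at 0.34 among them, and its 5 sensors and factors all 3 falls. Of 23 genes under ATF4 14 rose and 0 fell (median 0.18), including SLC3A2, the heavy chain of the cystine exchanger (0.61), and PSAT1, of serine synthesis (0.39). Of 26 proteasome subunits 24 rose and 0 fell (median 0.31), with PSMA7 at 279, 250 and 244 CPM with Palmul-tang and 196, 189 and 163 CPM with vehicle (0.49). At 20 µg/mL 13 proteasome subunits were already higher than vehicle and 1 was lower, and 9 rose and 0 fell between 500 and 20 µg/mL.

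The mitochondrially encoded genes were lower than vehicle at every dose. Of the 13 mitochondrially encoded genes 0 rose and 11 fell (median -0.52). MT-CO2, a cytochrome oxidase subunit, had 5832, 6950 and 7387 CPM with Palmul-tang and 8661, 9929 and 11226 CPM with vehicle (-0.56 ± 0.14, edgeR adjusted p = 0.00213). The groups did not overlap, but each was widely spread, and without vehicle replicate 3 only 3 of the 13 fell. Mitochondrially encoded genes took 6.3 ± 0.828% of counts with Palmul-tang at 500 µg/mL and 8.57 ± 1.19% with vehicle (SD, n = 3 each). The difference of -2.27 percentage points had p = 0.1 in a two-sided exact permutation test, the smallest that 3 against 3 samples allow. The share averaged 6.66% at 20 µg/mL and 6.3% at 100 µg/mL, and from 5.18% to 6.81% over the group means of all 4 extracts. The samples overlapped: vehicle replicate 1 had 7.427% and Sibjeondaebo-tang at 20 µg/mL replicate 2 had 7.529%. At 20 µg/mL 0 of the 13 genes rose and 8 fell, at 100 µg/mL 0 rose and 11 fell, and between 500 and 20 µg/mL 0 of the 13 genes were called in either direction.

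Nuclear genes for oxidative phosphorylation went the other way: 26 of 30 rose and 0 fell (median 0.28), with NDUFA1 of complex I at 0.49 and UQCRQ of complex III at 0.44. At 20 µg/mL 20 of them and at 100 µg/mL 19 were higher than vehicle, and 3 rose between 500 and 20 µg/mL. Of 39 cytosolic ribosomal protein genes 21 rose and 1 fell (median 0.14). RPS12 had 313, 289 and 293 CPM with Palmul-tang and 224, 202 and 161 CPM with vehicle (0.61), RPS21 was at 0.63, and RPL28 was the fall (-0.29). Without vehicle replicate 3, 11 ribosomal protein genes rose and 0 fell. Of the 39, at 20 µg/mL 15 were higher than vehicle and 2 lower (median 0.07), at 100 µg/mL 9 were higher and 2 lower (0.08), and between 500 and 20 µg/mL 1 rose. These transcripts are short, and the share of genes that fell ran along transcript length, at 5.17, 9.59, 13.5, 18.6 and 27.1% over 5 groups of about equal size ordered short to long. The share that rose did not, at 14.1, 22.2, 21, 18.9 and 10.9%. Over the alternatives that kept every sample of both groups, removal of length and GC trends among them, 18 to 22 ribosomal protein genes rose. Of the nuclear oxidative phosphorylation genes 25 to 26 rose in these, and 21 without vehicle replicate 3. How much of these lists is due to length, the sample codes or single vehicle samples was not tested.

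Of the 9 tested genes of the aryl hydrocarbon receptor list 3 rose and 2 fell (median -0.13), beside 17.3% and 14.8% over all genes. Without vehicle replicate 1 the median was 0.06. ALDH3A1 and NQO1, described above, were among the rises, and NQO1 is counted as an NRF2 target too. The aryl hydrocarbon receptor, the sensor of dioxin-like compounds, had its most used readout in CYP1A1. It had 1.13, 1.23 and 1.36 CPM with Palmul-tang and 5.25, 0.603 and 0.634 CPM with vehicle, and was not called (-0.79 ± 0.43, edgeR adjusted p = 0.173). Vehicle replicate 1 stood alone above all Palmul-tang samples, and the other vehicle samples lay below them. CYP1B1, from the same battery, had 51.3, 51.4 and 49.3 CPM with Palmul-tang and 86.2, 53.6 and 53.4 CPM with vehicle. Its fall (-0.35 ± 0.10, edgeR adjusted p = 0.00882) was lost without vehicle replicate 1 (-0.08, edgeR adjusted p = 0.24). In the interferon response 1 of 20 rose and 6 fell, and without vehicle replicate 2 the falls numbered 4. In the metallothionein and zinc list 0 of 11 rose and 5 fell, and without vehicle replicate 2 the falls numbered 3.

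At equal extract mass, Palmul-tang was tested against each of the 3 other extracts. Against Samul-tang 24 genes were called (0.138%), 5 higher (0.0287%) and 19 lower (0.109%) with Palmul-tang. Against Sagunja-tang 317 were called (1.82%), 194 higher (1.11%) and 123 lower (0.706%), and against Sibjeondaebo-tang 674 (3.87%), 613 higher (3.52%) and 61 lower (0.350%). Sagunja-tang and Samul-tang had 2 samples each, so these counts rest on fewer samples. Their sample codes also differ from those of Palmul-tang, which cannot be told apart from the formula. A fit to just the samples of the pair called 29 genes against Samul-tang and 1 against Sagunja-tang, so no order is read from the counts. Leaving out any 1 sample moved the Sagunja-tang count: it was 97, 108 and 139 without Palmul-tang replicates 1, 2 and 3, 23 without Sagunja-tang replicate 2 and 3670 without Sagunja-tang replicate 3. The Samul-tang count was 6, 11 and 11 without Palmul-tang replicates 1, 2 and 3 and 1 without either Samul-tang sample, and the Sibjeondaebo-tang count was 435 without Palmul-tang replicate 3. With trends along gene length and GC content removed, the Sibjeondaebo-tang comparison gave 582 higher and 739 lower, so no direction is read from its split.

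Among NRF2 targets, 18 of 36 were higher with Palmul-tang than with Sagunja-tang and 0 lower (median 0.25). Against Samul-tang 0 were higher and 4 lower (median -0.06), and against Sibjeondaebo-tang 1 was higher and 2 lower (-0.09). SLC38A4 had 8.98, 10.3 and 10.5 CPM with Palmul-tang, 4.9 and 5.03 CPM with Sagunja-tang, 14.3 and 14.8 CPM with Samul-tang and 8.68, 9.81 and 9.41 CPM with Sibjeondaebo-tang. Palmul-tang was higher than Sagunja-tang by 1.00 ± 0.13 (edgeR adjusted p = 6.31e-05) and lower than Samul-tang (-0.55 ± 0.11, edgeR adjusted p = 0.0305), and so lay between the formulas that it joins. AKR1B10 had the same order, with 283, 278 and 261 CPM with Palmul-tang, 200 and 177 CPM with Sagunja-tang and 335 and 342 CPM with Samul-tang. Its differences were 0.54 from Sagunja-tang (edgeR adjusted p = 4.01e-06) and -0.30 from Samul-tang (edgeR adjusted p = 0.00899). AKR1C2 was also lower than with Samul-tang (-0.46) and lower than with Sibjeondaebo-tang (-0.39, edgeR adjusted p = 0.000149). HMOX1 was higher than with Sagunja-tang by 0.58, and the difference of -0.20 from Samul-tang was not called (edgeR adjusted p = 0.226). NQO1 showed no called difference from any of the 3 extracts.

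Palmul-tang was also set against the mean of the log2 levels with Sagunja-tang and Samul-tang, which asks whether the joint formula lies midway at equal mass. The sample codes of Palmul-tang differ from those of both formulas, so a difference of formula and one of code cannot be told apart. Of all genes 6 were called (0.0344%), 1 higher (0.00574%) and 5 lower (0.0287%). NDRG1, a stress- and hypoxia-responsive gene on chromosome 8, had 11.8, 14 and 13.7 CPM with Palmul-tang, 13.7 and 15.6 CPM with Sagunja-tang, 27 and 22.7 CPM with Samul-tang and 15.8, 17.1 and 18.4 CPM with vehicle. It was below the mean of the formulas by 0.53 ± 0.09 on the log2 scale (edgeR adjusted p = 0.0153) and below Samul-tang by 0.91 ± 0.10. ALDOC, the glycolytic aldolase, had 14.6, 14.1 and 14.3 CPM with Palmul-tang, 18.3 and 16.7 CPM with Sagunja-tang and 17.3 and 18.3 CPM with Samul-tang. Every Palmul-tang sample lay below every sample of both formulas, which the rule that named ALDOC in this comparison requires. SLC38A4 (0.22, edgeR adjusted p = 0.405) and AKR1B10 (0.12, edgeR adjusted p = 0.319) showed no called difference from the mean. This comparison called 1115 genes without Sagunja-tang replicate 3 and between 0 and 3 without any 1 of the other samples. CLIC3, a chloride channel protein, separated Palmul-tang from Sibjeondaebo-tang, with 5.23, 5.3 and 5.32 CPM with Palmul-tang and 7.02, 6.22 and 6.97 CPM with Sibjeondaebo-tang (-0.35, edgeR adjusted p = 0.0012).

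**Figure D5:**
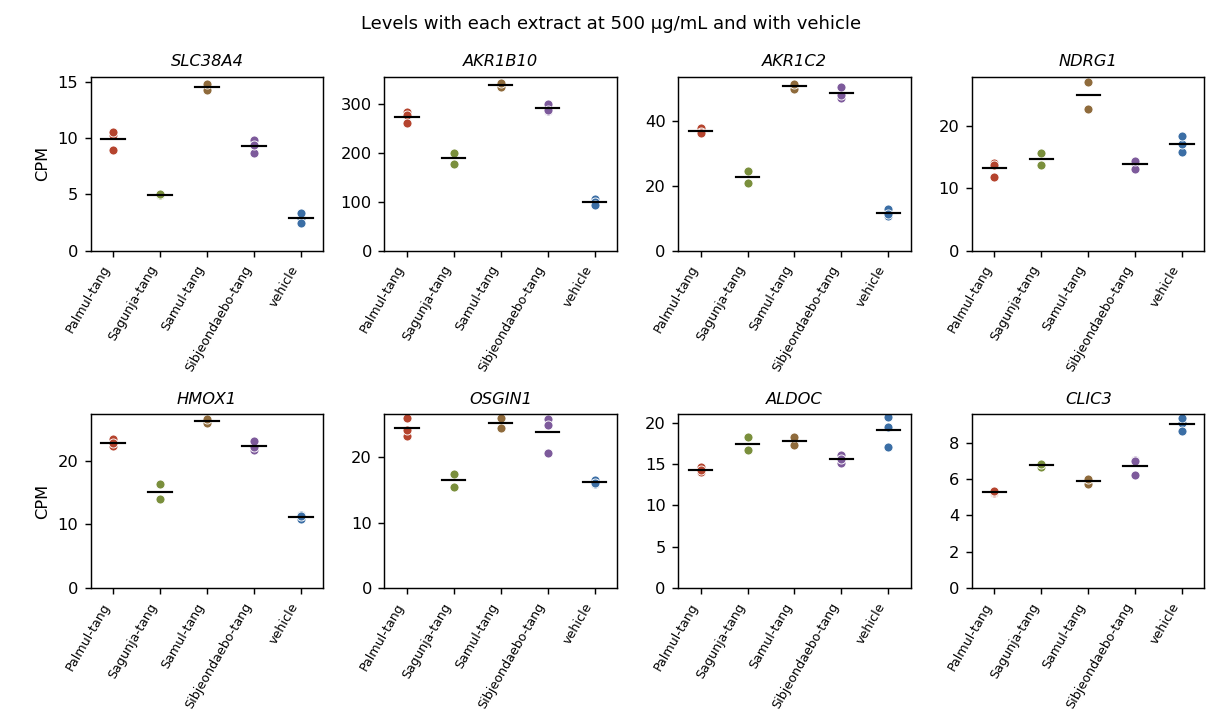
CPM per sample (vertical axes) of 8 genes with Palmul-tang, Sagunja-tang, Samul-tang and Sibjeondaebo-tang at 500 µg/mL and with vehicle (horizontal axes). SLC38A4 and AKR1B10 with Palmul-tang lie between Sagunja-tang and Samul-tang, and ALDOC with Palmul-tang lies below both. ALDOC was chosen for groups that do not overlap.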

How the data were processed

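RNA from HT29 cells was sequenced as directional 100 bp pairs on an MGI instrument, per the labels' protocols. The submitters' processing notes name hg38 as the build and, as tools, RSEM 1.3.3, STAR 2.7.3a, Trim Galore 0.6.5 and FastQC 0.11.9. The annotation release is not given in the sources used here, and the vehicle DMSO percentage differs between the sample labels and the series text. What the authors deposited are expected counts from RSEM, 1 value per gene, of which 9.45% were not whole, and they were rounded. RSEM divides reads shared by near-identical genes by estimation. Of 273 columns 33 were used and 240 were not used.

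Genes passing filterByExpr (minimum count 10; 17433 of 60675) entered edgeR 4.0.16 (R 4.3.3) with TMM normalization, 1 coefficient for each of 13 groups over 33 samples, the quasi-likelihood F test and Benjamini-Hochberg adjustment at 0.05, with glmTreat for a fold of 1.2. Residual degrees of freedom were 20 and prior ones 7.01. The SE is the absolute log2 fold change divided by the square root of F. CPM use TMM-scaled totals, except for the cell type markers, whose sums use unscaled totals over all genes. Depth limits precision for genes of a few CPM. Positions and biotypes came from GENCODE 29, where 57055 genes were found by identifier, and promoters from RefSeq. The test was tried on simulated data first.

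The members and the 40 gene lists (741 symbols, 699 tested) were chosen with earlier results of these data known. Named genes were the 12 largest rises and 12 largest falls whose mean log2 CPM reached 2, whose groups did not overlap and which have a standard name, the largest gains and losses in CPM, up to 5 each way in other comparisons, and up to 6 members of each list by p. The text names some of these, and further list members were chosen after their values were seen. Alternatives were DESeq2 1.42.0, RLE size factors, no filter, only the groups compared, a replicate block, removal of length and GC trends, and leaving out each sample, where a lone remaining sample of a formula was taken to vary as the other groups do. The exact permutation test used SciPy 1.17.1. Some members of the lists are counted but not reported here by name.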

Additional observations from a re-analysis of the deposited data

Results flagged for a closer look

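Genes that differed between Palmul-tang at 500 µg/mL and the mean of Sagunja-tang and Samul-tang at the same mass, by edgeR's quasi-likelihood test of that difference over all genes, were 6. NDRG1 was at -0.53 on the log2 scale, ALDOC at -0.30, PDCD4, a translation inhibitor, at -0.23, SMIM14 at -0.21, ANKZF1, a factor of ribosome quality control, at -0.20 and COTL1, an actin-binding protein, at 0.20. The adjusted p was 0.0153 for NDRG1 and PDCD4 and 0.0201 for the other 4.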

How the results depend on the processing

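For Palmul-tang at 500 µg/mL against vehicle, the genes called numbered 5598 and ran from 4264 to 5470 with 1 sample left out and from 5196 to 6068 otherwise. Direction was followed for named genes and list medians only. No named gene with a call changed direction in the 13 alternatives tried. Medians of several lists near 0 did, that of the amino acid and urea transporters reaching 0.08. The median of the aryl hydrocarbon receptor list went from -0.13 to 0.06 without vehicle replicate 1. That of the 3 tested fibroblast markers went from 0.33 to as low as -0.04. Of 222 named genes with a call, 32 lost it in at least 1 alternative, and 1 of the 24 largest, ZACN. Beyond 1.2-fold the count of 478 was 849 with no filter on low counts and 289 to 598 with 1 sample left out. At 100 µg/mL against vehicle 3481 became 1778 with only the groups compared and 1591 to 3954 with 1 sample left out, and at 20 µg/mL 3545 became 1663 to 3679. Between 500 and 20 µg/mL, 1335 higher and 1177 lower became 2233 and 995 with length and GC trends removed.

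Against Sagunja-tang 317 became 1388 with no filter, 816 with DESeq2, 478 with the replicate block and trends removed together, 1 with only the groups compared and 23 to 3670 with 1 sample left out. Against Samul-tang 24 became 272 with no filter, 110 with DESeq2, 15 with trends removed and 1 to 11 with 1 sample left out. Against the mean of both 6 became 370 with no filter, 75 with DESeq2, 3 with trends removed, 0 with only the groups compared and 0 to 1115 with 1 sample left out. Against Sibjeondaebo-tang 674 became 1321 with trends removed, 1871 with the replicate block added to that, and 435 to 547 with 1 sample left out. The cause was not tested.

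Deviations of same-numbered Palmul-tang samples at the upper dose and vehicle samples correlated at 0.06, -0.018 and 0.015. Those of differently numbered ones correlated at -0.071 to 0.061. With Sibjeondaebo-tang at the same dose, same-numbered values were 0.11, 0.054 and -0.048, and the others ran from -0.132 to 0.09. These few values do not settle whether replicate numbers pair the samples. With the replicate block 3187 genes were higher and 2792 lower than vehicle, 5979 called in place of 5598.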

Other observations

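Of the genes with the largest gains in CPM, EEF1A1, the translation elongation factor, had 10911, 10642 and 10333 CPM with Palmul-tang at 500 µg/mL and 10269, 9378 and 8917 CPM with vehicle, a log2 difference of 0.16 whose call was lost in several alternatives. ALDH1A1, the retinal dehydrogenase, had 1165, 1165 and 1161 CPM with Palmul-tang and 842, 791 and 707 CPM with vehicle (0.58), with no overlap between the groups. Among protein-coding genes 21.2% rose and 17.3% fell, and among long noncoding genes 4.78% rose and 7.13% fell.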
